A study of Homo sapiens with 24 samples.

Results

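Very long genes are the protein-coding genes on the autosomes whose GENCODE v44 gene record (GRCh38), from its first to its last base, spans at least 500000 bp. Of 309 such genes, 306 were matched by Ensembl identifier to the 63299 rows of the deposited table, and 3 had no row. The expression filter, which asked for about 10 reads in as many libraries as one group holds, left 184 of the 306. Of the 122 others, 18 had no read in any of the 24 libraries, 57 had at most 3 in any library, and the highest count of the remaining 47 was 18. The 184 tested members comprised 143 genes of 500 kb to 1 Mb and 41 of 1 Mb and over, up to CNTNAP2 and PTPRD, and they are described here beside 13208 shorter autosomal protein-coding genes that passed the same filter.

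RNA polymerase II reads a gene at a few kilobases per minute, so a transcript of a very long gene takes hours to complete, nearly all of it spent in introns that are later spliced out. Any brake on elongation therefore acts for longer on such genes than on short ones, and inhibitors of topoisomerase I or of the elongation kinases are known to lower long transcripts first. Many very long genes also coincide with common fragile sites, where transcription and replication share the same stretch of DNA, and many code for cell adhesion molecules, ion channels or synaptic proteins. 5-FdU-ECyd is a duplex drug that joins 5-fluorodeoxyuridine, which inhibits thymidylate synthase, to ethynylcytidine, whose triphosphate inhibits RNA polymerases.

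The study used the ovarian cancer cell line A2780, which is platinum-sensitive, and its platinum-resistant derivative A2780cis, which had cisplatin (1 µM) in its medium during some passages to keep it resistant. Both were exposed for 6 or 12 h to 5-FdU-ECyd at 1 µM or received plain growth medium (untreated), giving 8 groups of 3 libraries from ribosome-depleted total RNA. The tables held 11077368 to 21901406 reads per library. The labels name 3 samples per group and no further origin, so p-values measure the spread between these samples. Of 9 epithelial ovarian markers, PAX8, WT1, KRT7, CDH1 and MUC16 had at most 2 counts in every library, and the summed level of all 9 was 2.09 to 4.42 CPM (reads of a gene scaled to a fixed library total) in untreated A2780 and 25.1 to 32.7 in untreated A2780cis. In A2780 this sum was higher with drug, at 3.85 to 4.91 against 2.09 to 3.22 CPM at 6 h and 5.73 to 6.80 against 3.42 to 4.42 CPM at 12 h, while in A2780cis the groups overlapped at both times, and its part in the results was not tested. Among markers of other cell types, PTPRC, CD3E, PECAM1 and VWF had at most 2 counts as well, while CD68, COL1A1, DCN, ACTA2 and PDGFRB were detected. CD68, a marker of macrophages, was at 2.22 to 8.38 CPM over all libraries. ACTA2 was at 53.1 to 79.2 CPM in untreated A2780 and 2.75 to 4.25 CPM in untreated A2780cis. In each line the summed markers of other cell types stayed between 78.3 and 104 CPM (A2780) or 11.8 and 15.1 CPM (A2780cis) with and without drug.

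The start regions of 4 members that were called lower or higher in both lines at 12 h are shown first. The gene records of all 4 are past the span limit. PRKG1 and ANK3 fell at least 4-fold in both lines, and ANKS1B and SPAG16 were the members with a mean level of at least 1 log2 CPM that rose in both. The sequences are RefSeq promoters of GRCh38.p14, 250 bases before to 50 after the start, read 5′ to 3′ on the strand of the gene. PRKG1 (plus strand) lies at chr10:51074237-51074536, ANK3 (minus) at chr10:60733479-60733778, ANKS1B (minus) at chr12:99154717-99155016 and SPAG16 (plus) at chr2:213284214-213284513. Capitals mark the GC box, GGGCGG or its complement on the other strand CCGCCC, and TATAA was searched on both strands without a match in any of the 4.
PRKG1: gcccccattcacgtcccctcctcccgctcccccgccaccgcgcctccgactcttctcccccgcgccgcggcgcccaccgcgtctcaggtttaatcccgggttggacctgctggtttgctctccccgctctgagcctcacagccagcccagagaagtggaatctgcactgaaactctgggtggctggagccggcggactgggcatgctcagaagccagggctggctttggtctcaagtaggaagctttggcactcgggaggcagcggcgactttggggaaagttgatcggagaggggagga
ANK3: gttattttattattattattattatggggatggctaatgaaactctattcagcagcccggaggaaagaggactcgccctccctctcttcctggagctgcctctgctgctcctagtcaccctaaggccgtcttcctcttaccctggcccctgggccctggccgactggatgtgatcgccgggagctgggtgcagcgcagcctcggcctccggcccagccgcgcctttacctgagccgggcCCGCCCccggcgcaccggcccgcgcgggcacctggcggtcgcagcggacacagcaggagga
ANKS1B: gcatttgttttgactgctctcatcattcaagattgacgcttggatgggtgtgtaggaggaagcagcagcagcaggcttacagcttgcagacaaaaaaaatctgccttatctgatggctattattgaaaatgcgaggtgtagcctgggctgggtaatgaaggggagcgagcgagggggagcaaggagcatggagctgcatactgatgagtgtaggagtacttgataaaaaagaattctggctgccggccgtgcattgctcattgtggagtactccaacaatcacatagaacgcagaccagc
SPAG16: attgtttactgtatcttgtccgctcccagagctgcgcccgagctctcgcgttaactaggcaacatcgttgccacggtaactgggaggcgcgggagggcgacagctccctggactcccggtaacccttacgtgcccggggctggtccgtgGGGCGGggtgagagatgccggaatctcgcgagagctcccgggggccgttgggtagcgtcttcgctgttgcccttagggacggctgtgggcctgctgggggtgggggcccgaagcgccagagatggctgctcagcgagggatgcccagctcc
A single GC box stood in the window of ANK3 and a single one in that of SPAG16, a member that fell and a member that rose, while PRKG1 and ANKS1B had none. The G and C share was 65.3% in PRKG1, 64.0% in ANK3, 66.3% in SPAG16 and 48.7% in ANKS1B. The RefSeq start of ANKS1B lay 830170 bases from the start of its GENCODE record and that of PRKG1 83599 bases, against 38 for ANK3 and 75 for SPAG16. A transcript from the ANKS1B or PRKG1 window thus covers only part of the gene record. Of the 184 tested members, 151 had a RefSeq promoter, and 80 of them (53.0%) held a GC box and 24 (15.9%) TATAA. Over the 10452 tested shorter genes with a promoter the shares were 69.5% and 11.4%, and over all 14527 autosomal protein-coding genes of the table with one, tested or not, they were 59.8% and 16.8%.

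Beyond their span, the tested members shared long introns, and their messages were longer too but by far less. Their median span was 728966 bp against 32420 bp in the shorter genes, and their longest intron had a median of 187350 bp against 8880 bp. The canonical transcript, by contrast, had a median of 6951 bases and 18 exons, against 3253 bases and 9 exons. Its GC content was 43.4% in the median member and 49.1% in the median shorter gene. Chromosome 3 carried 23 of the 184, followed by chromosome 1 with 17 and chromosome 2 with 16. A gene record is as long as its outermost transcripts, and the canonical transcript itself spanned 500 kb in 136 of the 184. In 94 members some exonic bases also belonged to another gene, and in 12 more than 10% did. The counting settings listed by the paper let a read count for each gene it overlaps, so reads in such bases can enter several genes. No strand setting is listed, so whether this holds for genes on opposite strands is not known.

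Transcripts of very long genes fell after 5-FdU-ECyd in both lines and at both times. At 6 h in A2780, 108 of the 184 tested members were lower at an adjusted p of 0.05 (58.7%, against 13.4% of all 20240 genes tested) and 2 were higher (16.0% of all genes). At 12 h in A2780, 127 were lower (69.0%, against 26.1%) and 14 higher (7.61%, against 28.6%). In A2780cis, 84 were lower at 6 h (45.7%, against 16.3%) and 1 was higher (14.4% of all genes). At 12 h in A2780cis, 100 were lower (54.3%, against 28.9%) and 13 higher (7.07%, against 31.0%). The median log2 fold change (FC) of the members was -0.68 and -1.10 in A2780 and -0.58 and -1.04 in A2780cis at 6 and 12 h, while over all genes tested it was 0.04, 0.02, 0.00 and 0.04. CPM are relative to the reads of the library, so fewer surviving cells and less RNA per cell cannot be told apart from these values. A fall shared by all genes would not show in them.

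A member near zero in both groups cannot fall, and this touched A2780cis more than A2780. In A2780, 8 of the 184 had at most 3 counts in each of the 6 libraries compared at 12 h, and in A2780cis 38 did. Among the members above that floor, 108 of 176 (61.4%) were lower at 6 h and 127 of 176 (72.2%) at 12 h in A2780. In A2780cis the counts were 82 of 142 (57.7%) and 100 of 146 (68.5%). At 12 h, 97 members in A2780 and 82 in A2780cis were at least 2-fold lower, and 24 and 25 at least 4-fold. Lower at 12 h in both lines were 78 members, which is 61.4% of those lower in A2780 and 78.0% of those lower in A2780cis, and 53 were lower in all 4 comparisons. Such counts over all genes are not given here, so neither depth nor overlap is set against that of other genes.

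Every treated library showed the shift. Taking for each library the median difference of the 184 members from the mean of the untreated libraries of its line and time, the untreated libraries lay between -0.09 and 0.08 log2 units. Treated A2780 libraries lay at -0.72, -0.63 and -0.59 at 6 h and at -0.94, -0.99 and -1.02 at 12 h. Treated A2780cis libraries lay at -0.43, -0.44 and -0.54 at 6 h and at -0.75, -0.68 and -0.83 at 12 h. No treated library reached the untreated range in any of the 4 pairs of groups. The same median over the shorter genes stayed between -0.08 and 0.07 in all 24 libraries. They were 13208 of the 20240 genes given to the scaling. The scaling thus held their median level, so it is no separate control. The 306 members together took 0.389% ± 0.00444 (SD, n = 3) of the reads in untreated A2780 at 12 h and 0.205% ± 0.00207 after the drug. In A2780cis the share went from 0.296% ± 0.00918 to 0.128% ± 0.0142.

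**Figure D1:**
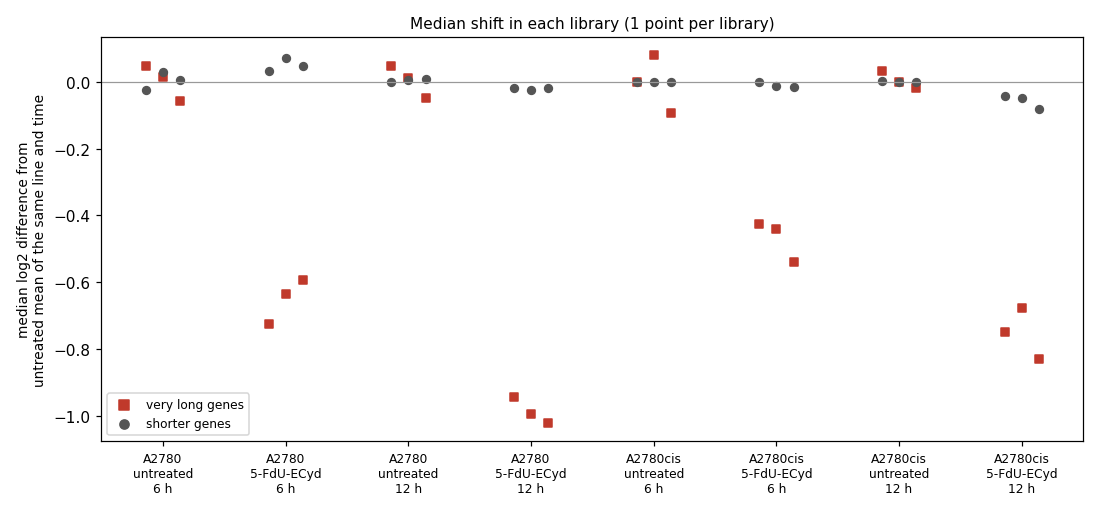
Median log2 difference of the 184 tested very long genes (red squares) and of 13208 shorter genes (grey circles) from the untreated mean of the same line and time, 1 pair of points per library. All 12 treated libraries have their red squares below every untreated library, while the grey circles stay between -0.08 and 0.07. The shorter genes largely set the scaling of the libraries, so the grey circles are no separate control.

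Beyond 30 kb, the median change was lower in each longer class of gene records in A2780 at both times and in A2780cis at 12 h. In A2780 at 6 h the median log2 FC was 0.25 in genes under 10 kb, -0.14 at 100 to 200 kb and -0.30 at 200 to 500 kb, and it reached -0.67 in the members under 1 Mb and -1.05 in those of 1 Mb and over. At 12 h in A2780 the first 2 classes stood at 0.05 and 0.11 and the last 3 at -0.45, -1.07 and -1.38. The same 3 medians in A2780cis were -0.43, -0.65 and -0.41 at 6 h and -0.80, -1.02 and -1.24 at 12 h. With genes placed by their canonical transcript, the last 3 medians in A2780cis at 12 h were -0.86, -1.14 and -0.83, so that the last step there holds for gene records and not for canonical transcripts. Shares of genes called lower in A2780 at 12 h were 22.3% under 10 kb, 21.9% at 10 to 30 kb, 55.2% at 200 to 500 kb, 67.8% in members under 1 Mb and 73.2% in those above. In A2780cis at 12 h they went from 17.3% to 63.3%, 57.3% and 43.9%. Of the 41 members of 1 Mb and over, 12 were at the floor there, and 18 of the other 29 (62.1%) were lower, beside 70.1% of the members under 1 Mb and 68.6% of the genes of 200 to 500 kb above the floor. In A2780cis at 12 h the members under 1 Mb thus stood close to the class just below them in share, and lower in median. At 6 h in A2780cis, 48.9% of the genes of 200 to 500 kb were lower, beside 46.2% of members under 1 Mb and 43.9% of those above. Among genes above the floor these shares were 53.8%, 59.1% and 53.1%.

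**Figure D2:**
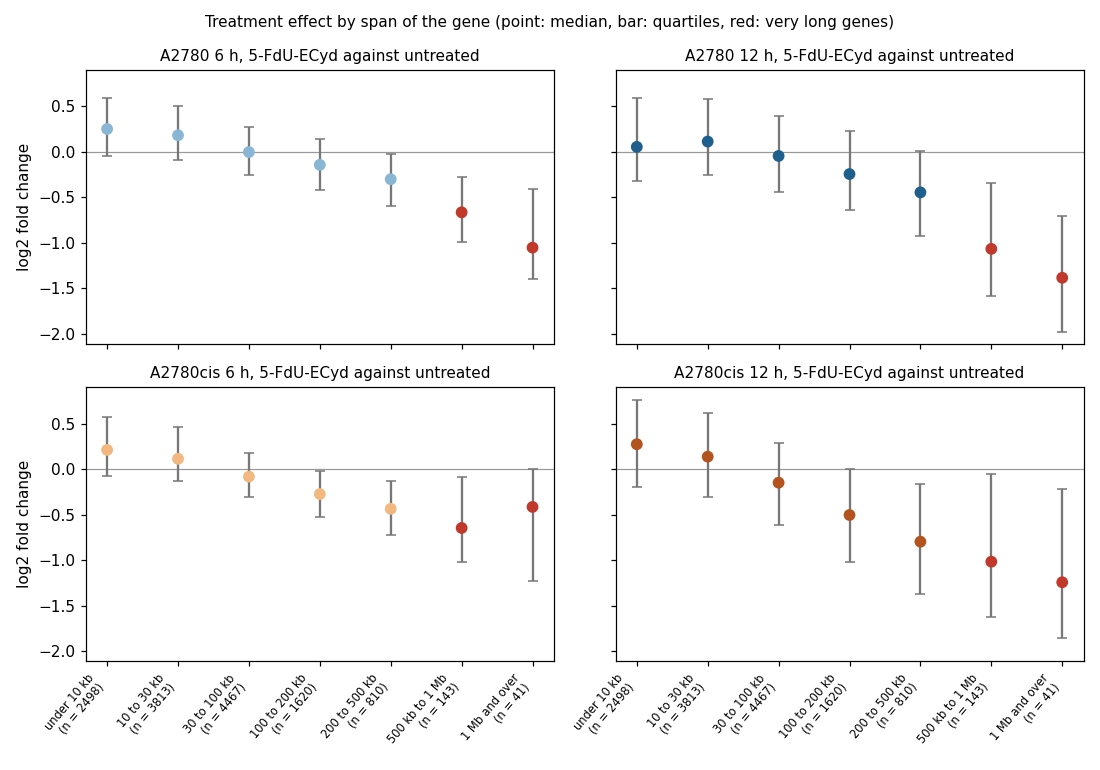
Median log2 fold change after 5-FdU-ECyd (points) with quartiles (bars) in 7 classes of gene span, for 2 lines and 2 times. The 2 classes of very long genes (red) have the lowest medians in 3 of the 4 panels, down to -1.38 in A2780 at 12 h, and in A2780cis at 6 h the class of 1 Mb and over (-0.41) lies at the level of the 200 to 500 kb class (-0.43).

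Because very long genes are expressed at lower levels than most, they were set beside shorter genes of similar mean expression, in 5 classes of mean log2 CPM over all libraries. This mean pools both lines and treatments, so genes of a class can differ in level within a line. At 12 h, 39 members were at the floor in untreated A2780cis only. In each class and each comparison the median of the members was below that of the shorter genes. At 12 h in A2780 the pairs of medians, members first, were -1.23 and 0.52 below 0 log2 CPM, -0.77 and 0.17 at 2 to 4, and -1.06 and -0.29 at 6 and over. In A2780cis at 12 h they were -0.47 and 0.55, -1.28 and 0.10, and -1.28 and -0.35 in the same classes. In the class below 0 log2 CPM a gene can pass the filter through a group where it is high. Of the shorter genes of that class, 36.6% were higher in A2780 at 12 h. How far the filter widens the gap there was not tested. All 9 members of the highest class were lower at 12 h in both lines, against 53.2% and 56.0% of the shorter genes of that class. Averaged over the classes with the number of members as weight, the median of the members minus that of the shorter genes was -0.89 and -1.35 log2 units in A2780 and -0.75 and -1.08 in A2780cis, at 6 and 12 h. Set beside shorter genes in the same class of transcript length, the difference was -0.63, -1.0, -0.50 and -0.72, and by GC content -0.63, -1.03, -0.49 and -0.90. The classes are coarse, with 8015 shorter genes in the first length class and 6757 in the last GC class. In A2780cis at 12 h, shares lower from the shortest to the longest class were 54.1%, 45.9%, 58.3%, 59.5% and 54.1% of members. Of shorter genes they were 26.3%, 42.7%, 51.6%, 57.8% and 58.2%, so members of the longest class were not lower more often. These medians and shares are descriptions, with no test.

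**Figure D3:**
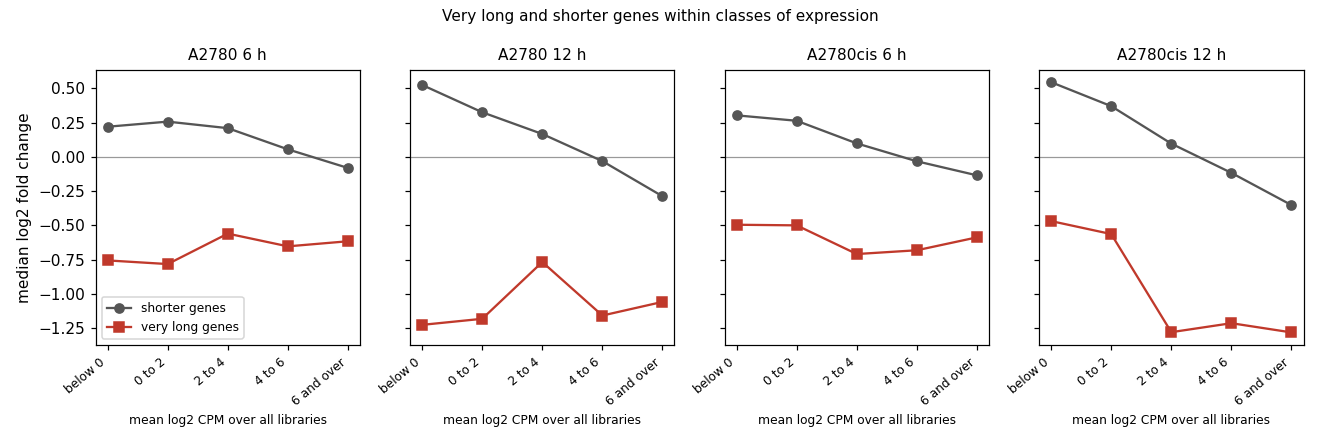
Median log2 fold change of very long genes (red squares) and shorter genes (grey circles) in 5 classes of mean log2 CPM, one panel per comparison. The red line lies below the grey one in all 20 pairs. In the lowest class (-1.23 against 0.52 in A2780 at 12 h) a gene can pass the filter through a group where it is high.

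Within the members, span itself ordered the changes only weakly. Over the 103 members with a mean of at least 1 log2 CPM that were above the floor, Spearman's rho between span and log2 FC was -0.10 at 6 h (n = 104) and -0.17 at 12 h in A2780, and 0.11 and 0.01 in A2780cis (n = 101). Between the lines the log2 FC of such members gave a rho of 0.65 at 6 h (n = 101) and 0.68 at 12 h (n = 100), close to the 0.72 and 0.73 of the shorter genes. The points of each correlation share libraries and depth.

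Among members with a mean of at least 1 log2 CPM, PRKG1, KIF26B and ANK3 had the largest mean falls over both lines at 12 h. KIF26B was low in A2780 and ANK3 low in A2780cis even without drug. PRKG1, the cGMP-dependent protein kinase (chr10:50990888-52298423), was at 33.3, 30.7 and 27.6 CPM in untreated A2780 at 12 h and at 4.62, 4.54 and 3.79 CPM after the drug, a log2 FC of -2.83 ± 0.16 (SE, n = 3 per group, edgeR adjusted p 1.5e-13). In A2780cis its levels were 33.3, 31.5 and 27.6 CPM untreated and 3.81, 5.63 and 3.37 CPM treated, with a log2 FC of -2.84 ± 0.16. At 6 h the falls were -1.19 ± 0.15 and -1.31 ± 0.15, and no treated library overlapped the untreated ones at either time. ANK3, or ankyrin-G, anchors membrane proteins to the spectrin cytoskeleton (chr10:60026298-60733490). It went from 160.2, 153 and 139.5 CPM to 24.1, 20.7 and 22 CPM in A2780 at 12 h (-2.76 ± 0.12), after -1.64 ± 0.11 at 6 h. In A2780cis, where the untreated level was only 3.90, 3.14 and 3.45 CPM, the treated libraries held 0.572, 0.344 and 0.623 CPM, a log2 FC of -2.77 ± 0.24. The 2 fitted falls of ANK3 at 12 h lay within their errors of each other although the untreated level differed between the lines by -5.42 log2 units. SLC8A1, a sodium-calcium exchanger, dropped from 94.0, 93.8 and 92.9 to 22.1, 21.0 and 21.9 CPM in A2780 (-2.11 ± 0.13) and from 42.2, 41.4 and 41.9 to 11.7, 12.2 and 7.42 CPM in A2780cis (-2.00 ± 0.13). Its antisense gene SLC8A1-AS1, which shares 9.15% of the exonic bases of SLC8A1, moved by -2.00 and -2.09.

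The 5 members with the highest level per kb of exon fell at 12 h in both lines as well. The first was a readthrough gene, ENSG00000282278, whose exonic bases all belong to FIP1L1 or PDGFRA, so its -1.11 and -1.20 cannot be told apart from theirs. DOCK1, an activator of the Rac GTPase, showed -0.10 at 6 h, which did not pass the threshold, and -0.85 ± 0.11 at 12 h in A2780, from 112, 127 and 124 to 65.6, 68.6 and 67.0 CPM. NEBL (nebulette, a Z-disc protein) moved by -0.88 ± 0.10 in A2780 and -1.11 ± 0.10 in A2780cis, although its canonical transcript spans only 117339 bp. ROBO1, a receptor of Slit guidance cues (chr3:78597239-79767998), was at 124, 115 and 122 CPM untreated and 91.4, 93.8 and 87.9 CPM treated at 6 h (-0.40 ± 0.12), and at 136, 139 and 143 and 47.7, 49.8 and 48.3 CPM at 12 h (-1.52 ± 0.12). TBC1D5, which regulates Rab GTPases and retromer (chr3:17157162-18444817), changed by -0.28 ± 0.10 at 6 h and by -1.85 ± 0.11 at 12 h in A2780, where its levels were 118, 127 and 136 CPM untreated and 38.9, 34.4 and 32.5 CPM treated. The changes of DOCK1, ROBO1 and TBC1D5 were thus smaller at 6 h than at 12 h.

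**Figure D4:**
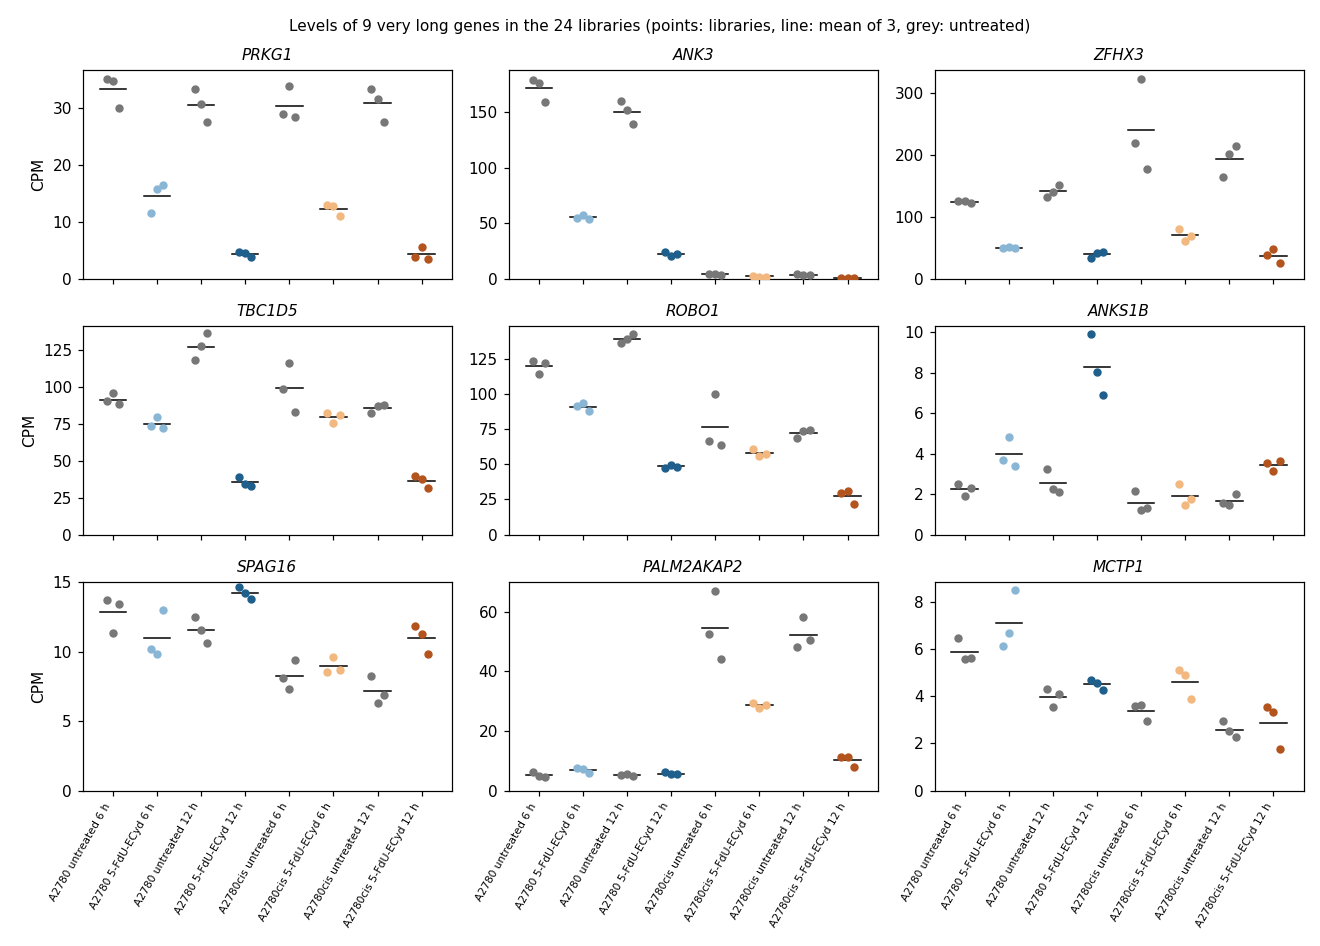
Levels (CPM, axis from 0) of 9 very long genes in the 24 libraries, with the mean of each group of 3 as a line and untreated libraries in grey. PRKG1, ANK3, ZFHX3, TBC1D5 and ROBO1 are lower in all treated libraries at 12 h, ANKS1B and SPAG16 are higher, PALM2AKAP2 is lower in A2780cis alone, and MCTP1 passed the threshold in none of the 4 treatment comparisons.

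Cell adhesion and axon guidance genes formed the largest list, with 39 tested of 71. At 12 h, 33 lower and 3 higher of the 39 were called in A2780 (median -1.62) and 19 lower and 1 higher in A2780cis (median -1.40), where 15 of them were at the floor. The counts of this and the next lists stand beside 69.0% of all tested members lower in A2780 and 54.3% in A2780cis, and 26.1% and 28.9% of all genes, and no list was tested against the other members. ERBB4, a receptor tyrosine kinase for neuregulins, fell by 2.42 on the log2 scale in A2780 and by 2.11 in A2780cis, and MDGA2, a membrane-anchored adhesion protein, by 1.62 and 2.41. GPC6, a heparan sulfate proteoglycan, moved by -0.41 ± 0.13 at 6 h and -2.12 ± 0.14 at 12 h in A2780. LRRC4C, a netrin-G ligand, was already down by 1.67 and 1.53 at 6 h, and ADGRL2, a latrophilin receptor, went from 1.49, 2.13 and 1.40 CPM to 0.191, 0.172 and 0.0623 CPM in A2780cis at 12 h. The treated libraries held at most 3 counts each, so the level was at least 9.15-fold lower (untreated mean against 3 counts per library). PTPRD and CNTNAP2, the longest tested members, changed by -2.20 ± 0.14 and -0.76 ± 0.18 in A2780 at 12 h.

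Cytoskeleton, polarity and trafficking genes numbered 39 tested of 47, and 27 lower and 5 higher were called in A2780 at 12 h (median -1.06) and 29 lower and 5 higher in A2780cis (median -1.17). KIF26B, an atypical kinesin (chr1:245154985-245709432), went from 39.6, 52.9 and 54.4 to 4.19, 5.63 and 4.43 CPM in A2780cis (-3.36 ± 0.18), after -2.52 ± 0.17 at 6 h. In A2780 its levels were only 0.990, 1.16 and 1.39 CPM untreated and 0.0701, 0.147 and 0.486 CPM treated. ANK2, another ankyrin, fell by 2.24 and 1.60 at 12 h, NAV3, a microtubule-binding navigator, by 1.73 and 2.14, and TTC28 by 1.18 and 2.00. UNC13C, a vesicle priming factor, fell by 1.32 at 6 h and 1.23 at 12 h in A2780 and by 0.91 at 12 h in A2780cis, so that its changes in A2780 at both times lay close together.

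Among 27 tested signalling and metabolic enzymes, 20 lower and 0 higher were called at 12 h in A2780 (median -0.94) and 17 lower and 1 higher in A2780cis (median -1.02). GPHN, or gephyrin, which clusters inhibitory receptors and makes the molybdenum cofactor, was at 45.4, 48.1 and 47.5 CPM untreated and 8.13, 8.38 and 7.23 CPM treated in A2780cis (-2.57 ± 0.13). Its change in A2780 was -1.29 ± 0.12. Of 20 tested transcription, chromatin and RNA-binding genes, 14 lower and 3 higher were called in A2780 (median -1.28) and 7 lower and 3 higher in A2780cis (median -1.07). In A2780cis 7 of 20 is near the 28.9% of all genes, but only 15 of the 20 were above the floor there. ZFHX3, a zinc finger homeobox factor, was at 125, 126 and 123 CPM untreated and 49.5, 50.8 and 49.1 CPM treated at 6 h in A2780 (-1.32 ± 0.19), and its largest change was -2.39 ± 0.19 in A2780cis at 12 h. Of 14 tested ion channels and neurotransmitter receptors, 7 lower and 1 higher were called in A2780 and 7 lower and 0 higher in A2780cis. SLC4A4, a sodium-bicarbonate cotransporter, went from 106, 99.4 and 96.0 to 16.6, 14.6 and 10.6 CPM in A2780cis (-2.85 ± 0.14), after -1.70 ± 0.13 at 6 h, and had at most 6 counts in any A2780 library. The 45 tested members outside these lists had 26 lower and 2 higher in A2780 and 22 lower and 3 higher in A2780cis. The lists overlap, so that a gene can count in more than one.

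Of 36 members at common fragile sites, 26 were tested, and at 12 h 21 lower and 2 higher were called in A2780 (median -1.25) and 13 lower and 2 higher in A2780cis (median -0.69). At 6 h the counts were 14 lower and 0 higher in A2780 and 9 lower and 0 higher in A2780cis. Of all tested members, 58.7% and 45.7% were lower at 6 h, and of all genes 13.4% and 16.3%. These counts were not tested against those of the other members. FHIT, a hydrolase at the site FRA3B, was at 1.85, 2.20 and 2.42 CPM untreated and 1.33, 1.37 and 0.729 CPM treated in A2780 at 12 h (-0.94 ± 0.27). In A2780cis at 12 h it was at 0.674, 0.393 and 0.270 and 0.445, 0.459 and 0.187 CPM, groups that overlap (-0.31 ± 0.44, not past the threshold). WWOX, an oxidoreductase at FRA16D, moved by -0.77 ± 0.18 in A2780 and by -0.22 ± 0.19 in A2780cis, the latter not past the threshold. LRP1B, a lipoprotein receptor, fell by 1.83 in A2780 and had at most 5 counts in any A2780cis library. DLG2, a synaptic scaffold, went from 20.6, 20.3 and 21.4 to 5.25, 3.86 and 4.03 CPM in A2780 (-2.26 ± 0.14) and changed by -1.55 ± 0.15 in A2780cis. IMMP2L, a mitochondrial peptidase, changed by -1.0 ± 0.16 and -0.49 ± 0.17, and EXOC4 of the exocyst by -1.20 ± 0.08 and -0.89 ± 0.08. MACROD2, which lies at a well known site, had at most 7 counts in any library and was not tested.

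Some members rose. At 12 h, 8 were higher in both lines: ANKS1B, MAGI2, PHACTR1, RBFOX3, RORA, SORCS2, SPAG16 and TAFA2, of which all but ANKS1B and SPAG16 had a mean below 1 log2 CPM and were picked out after their values were seen. ANKS1B (chr12:98726457-99984936) encodes a synaptic scaffold and was at 3.23, 2.26 and 2.11 CPM untreated and 9.88, 8.01 and 6.90 CPM treated in A2780 at 12 h (1.71 ± 0.20, edgeR adjusted p 8.8e-08). In A2780cis it was at 1.54, 1.46 and 2.00 and 3.56, 3.16 and 3.62 CPM (1.04 ± 0.23). Of its exonic bases, 6.62% also belong to APAF1, an apoptosome gene on the opposite strand, whose changes at 12 h were 1.40 in A2780 and 0.92 in A2780cis. How far APAF1 reads enter the ANKS1B counts was not tested. SPAG16, a sperm axoneme protein that shares no exonic base, went from 8.24, 6.34 and 6.86 to 11.9, 11.3 and 9.85 CPM in A2780cis (0.62 ± 0.13) and changed by 0.30 ± 0.13 in A2780. SORCS2, a sortilin-like receptor, had no read in untreated A2780 at 12 h and 1.26, 1.17 and 1.41 CPM after the drug, at least 7.31-fold higher when the untreated group is set to 3 counts per library. RORA, a nuclear receptor, was at 0.626, 0.898 and 0.702 and 2.54, 2.18 and 1.99 CPM in A2780cis (1.59 ± 0.26). At 6 h only ANKS1B and RBFOX3 in A2780 and FRMD4A in A2780cis were higher.

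Higher at 12 h in A2780, by the naming rule, were also ASTN2 (1.55 ± 0.13), an astrotactin, HIVEP3 (0.69 ± 0.22), a zinc finger factor, SYNE1 (0.79 ± 0.21), a nuclear envelope spectrin, RYR3 (0.40 ± 0.17), a calcium release channel, and PCDH15 (0.37 ± 0.14), a protocadherin. ASTN2 was at 8.12, 7.64 and 7.19 CPM untreated and 20.7, 24.1 and 22.1 CPM treated, and in A2780cis its groups overlapped (-0.08). PCDH15 was lower at 6 h (-0.39 ± 0.15) and higher at 12 h, while its untreated level went from 29.3, 27.9 and 26.6 CPM at 6 h to 21.9, 21.3 and 18.4 CPM at 12 h. In A2780cis, FRMD4A, a polarity scaffold, rose by 0.96 ± 0.13, SUMF1, the activator of sulfatases, by 0.53 ± 0.10, and CAMTA1, a calmodulin-binding factor, by 0.43 ± 0.11. PRPF18, which shares 13.5% of the exonic bases of FRMD4A, moved by -0.04. The canonical transcript of SUMF1 spans 106124 bp, that of CAMTA1 984253 bp. Past the threshold in none of the 4 comparisons were 11 members, of which CPQ, DAB1, MCTP1, SUGCT and EYS had a mean of at least 1 log2 CPM. EYS, whose record spans 1987247 bp, was at 3.10, 2.20 and 2.21 CPM untreated and 3.92, 2.93 and 2.04 CPM treated in A2780 at 12 h (0.23 ± 0.20), with 12.9% of its exonic bases in PHF3 or ZC3H11C.

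From 6 to 12 h the fall deepened in part of the members. The 12 h effect was below the 6 h effect in 42 of 184 in A2780 (22.8%, against 13.0% of all genes) and above it in 7 (3.80%, against 10.7%). In A2780cis it was below in 50 (27.2%, against 13.6%) and above in 5 (2.72%, against 10.3%). The median difference was -0.31 in A2780 and -0.41 in A2780cis. With libraries scaled by their size alone, A2780 had 29 members below and 12 above. The largest deepening in A2780 was of GPC6 (-1.70 ± 0.19), PRKG1 (-1.63 ± 0.22) and TBC1D5 (-1.57 ± 0.15), and in A2780cis the falls of ANK3 (-1.77 ± 0.33) and ADGRL2 deepened, the latter a gene whose treated libraries were at the floor at 12 h. GMDS, an enzyme on the path to GDP-fucose, did not pass the threshold at 6 h in A2780 (11.9, 11 and 10.9 CPM treated, 11.1, 10.9 and 9.55 untreated) and fell at 12 h (6.73, 7.33 and 6.02 CPM treated, 15.0, 14.6 and 15.0 untreated).

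Whether the lines differed in their response was tested by the difference of their treatment effects, A2780cis minus A2780. At 6 h it was negative, a deeper fall in A2780cis, in 3 of 184 members (1.63%, against 2.38% of all genes), which were PALM2AKAP2 (-1.30 ± 0.23), GMDS (-0.85 ± 0.16) and GPHN (-0.66 ± 0.17). It was positive in 0 by edgeR's quasi-likelihood test (0.692% of all genes) and in 0 by DESeq2. At an unadjusted p under 0.05 by edgeR, 20 members were positive and 16 negative, and such counts over all genes are not given here. At 12 h it was negative in 30 (16.3%, against 14.0%) and positive in 8 (4.35%, against 9.7%). PALM2AKAP2 anchors protein kinase A at sites within the cell. It was at 5.28, 5.67 and 4.88 CPM untreated and 6.10, 5.42 and 5.59 CPM treated in A2780, groups that overlap, and at 48.0, 58.2 and 50.6 and 11.2, 11.3 and 7.85 CPM in A2780cis, a difference of -2.47 ± 0.23 (edgeR adjusted p 3.0e-08). LRRC7, or densin, differed likewise (-2.06 ± 0.20), with 2.44, 2.32 and 2.16 and 2.87, 3.27 and 2.82 CPM in A2780 and 53.0, 53.4 and 47.3 and 18.5, 15.1 and 14.5 CPM in A2780cis. In untreated libraries at 12 h the A2780cis level was above that of A2780 by 3.31 (PALM2AKAP2) and 4.47 (LRRC7) on the log2 scale. A deeper fall in A2780 was found for NCAM2, a neural adhesion molecule (0.92 ± 0.18), and DLG2 (0.71 ± 0.21), and FRMD4A, which rose in A2780cis, differed by 0.83 ± 0.18. DLGAP1, a scaffold of the postsynaptic density chosen after its values were seen, was the 1 member called in opposite directions in the lines, with 1.17 ± 0.20 in A2780 and -1.09 ± 0.43 in A2780cis.

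**Figure D5:**
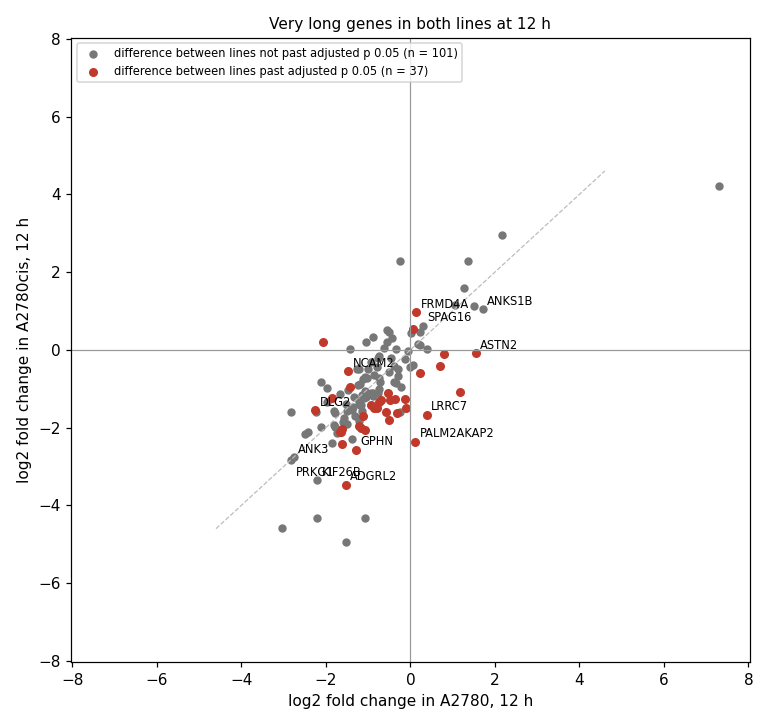
Log2 fold change at 12 h in A2780 (x axis) and A2780cis (y axis) of the 138 very long genes above 3 counts in both lines, with equal effects on the dashed line. Red marks 37 genes whose effects differed between the lines at an adjusted p of 0.05, such as PALM2AKAP2 and LRRC7, which lie far below the dashed line.

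The lines differed in these genes before any treatment. In untreated A2780cis at 6 h, 101 of 184 were lower than in untreated A2780 (54.9%, against 22.9%) and 47 higher (25.5%, against 25.0%), and at 12 h 107 (58.2%, against 27.5%) and 43 (23.4%, against 25.4%). At 12 h, 39 members were at the floor in untreated A2780cis only and 8 in untreated A2780 only. HDAC9, a histone deacetylase, was at 85.8, 81.6 and 75.5 CPM in A2780 and 0.0963, 0 and 0 CPM in A2780cis, at least 512-fold lower, with CCDC178 (at least 199-fold) and PCDH15 (at least 129.8-fold) lower too. SLC4A4 was at 0.0660, 0.0579 and 0.154 CPM in A2780 and 106, 99.4 and 96.0 CPM in A2780cis, at least 573-fold higher, and KIF26B (5.35 ± 0.21), EPHA6, an ephrin receptor (5.39 ± 0.21 at 6 h), and GRIN2B, an NMDA receptor subunit (5.43 ± 0.36), were higher as well. These bounds set the mean of one group against 3 counts per library in the other, and cover counting error only.

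Time in culture alone moved fewer members than the drug. Between 6 and 12 h without drug, 14 members fell (7.61%, against 10.3% of all genes) and 7 rose (3.80%, against 16.6%) in A2780, and 36 fell (19.6%, against 21.9%) and 8 rose (4.35%, against 18.0%) in A2780cis. With libraries scaled by their size alone the split was 8 lower and 15 higher in A2780 and 14 lower and 16 higher in A2780cis, so the balance of rises and falls with time rests on the scaling. RYR3 fell by 0.85 and 0.77 in the lines, UNC13C by 0.57 and MCTP1, a calcium-binding membrane protein, by 0.57 in A2780, and LRRTM4, a synaptic organiser, by 0.95 and PCDH9 by 0.78 in A2780cis. TRAPPC9, of a vesicle tethering complex, rose by 0.73 and 0.55, and DENND1A, a Rab activator, by 0.69 and 0.63, SNX29 by 0.66 in A2780 and TTC28 by 0.45 in A2780cis. Each treatment comparison uses the untreated libraries of its own time.

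The genes of the elongation machinery were read from a list of 56, all tested. At 12 h 34 lower and 9 higher were called in A2780 (median -0.39) and 36 lower and 7 higher in A2780cis (median -0.68), after 17 lower and 7 higher and 20 lower and 2 higher at 6 h. Over all genes tested, 26.1% were lower and 28.6% higher at 12 h in A2780 and 28.9% and 31.0% in A2780cis, with medians of 0.02 and 0.04. At 6 h these shares were 13.4% and 16.0% in A2780 and 16.3% and 14.4% in A2780cis. ELL2 and ELL3, subunits of elongation complexes, rose by 2.35 ± 0.23 and 1.48 ± 0.13 in A2780 and by 1.45 ± 0.17 and 1.32 ± 0.12 in A2780cis at 12 h. CDK12, the kinase that keeps polymerase II processive on long genes, fell by 1.43 ± 0.13 and 2.03 ± 0.13 in the lines, and TOP1, the topoisomerase that relieves supercoils ahead of polymerase, by 1.05 ± 0.10 and 1.58 ± 0.10. XRN2, the termination exonuclease, fell by 0.89 ± 0.09 in A2780 and 0.97 ± 0.09 in A2780cis, and TOP2A by 1.13 ± 0.12 and 1.99 ± 0.12. CCNK, the cyclin of CDK12, rose by 0.83 ± 0.10 in A2780, with -0.08 in A2780cis not past the threshold, and TCEANC2 rose by 0.65 ± 0.11 and 0.32 ± 0.11. SUPT4H1 (0.41 ± 0.13) and RECQL5 (0.40 ± 0.13) rose in A2780cis, with -0.24 and 0.25 in A2780 not past the threshold. The part of these changes in those of the long genes was not tested.

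Just inside the span limit were ANO5 (500909 bp), KCNAB1 (501438 bp) and DNAH14 (503031 bp), with log2 FC at 12 h of -0.89, -0.44 and -0.12 in A2780 and 0.33, 0.31 and -0.23 in A2780cis. Just outside were DIAPH3 (498346 bp), ITPR2 (497843 bp) and CACNA2D1 (497513 bp), with -0.90, -0.45 and -0.65 in A2780 and -2.36, -1.51 and -1.30 in A2780cis. The change of ITPR2 in A2780 did not pass the threshold. ANO5 and KCNAB1 had at most 43 and 30 counts in any library, and DNAH14 at most 710. DIAPH3, ITPR2 and CACNA2D1 had means of 5.32, 3.34 and 6.42 log2 CPM, so the genes on each side of the limit were not of equal expression. Members whose canonical transcript also spans 500 kb (136) were lower at 12 h in 72.1% of cases in A2780 and 59.6% in A2780cis. The 48 whose canonical transcript is shorter were lower in 60.4% and 39.6%. At 6 h the former were lower in 58.1% (median -0.66) and 49.3% (median -0.64) and the latter in 60.4% (median -0.82) and 35.4% (median -0.50), so that in A2780 at 6 h the members with a shorter canonical transcript were not the less changed ones. Without the members that share exonic bases, 59 of 90 (65.6%) were lower at 12 h in A2780 and 50 of 90 (55.6%) in A2780cis. Of all genes tested, 26.1% and 28.9% were lower at 12 h.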

How the data were processed

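RNA from 24 samples of A2780 and A2780cis was sequenced by the authors from stranded total RNA libraries. Per the labels, reads were handled with bcl2fastq and Trimmomatic, aligned with STAR 2.5.2b to GRCh38.p7 and assigned to genes with featureCounts. The table the authors deposited holds estimated counts per gene, of which 9.50% to 12.8% of the entries in a library were not whole, and these were rounded. The paper's listed settings allowed reads overlapping several genes and fractional counts, and no strand setting is listed.

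Gene spans were taken from GENCODE v44 on GRCh38, a later release than that of the table, and 56948 of its 63299 rows were matched. Genes were kept by filterByExpr (minimum count 10, minimum total 15), scaled by the trimmed mean of M-values and tested with the quasi-likelihood test of edgeR 4.0.16 in R 4.3.3, in 1 model of all 8 groups without a replicate term. P-values were adjusted by Benjamini-Hochberg over all 20240 genes tested, at a threshold of 0.05. The standard error of a log2 FC was derived from the test statistic. The authors used DESeq2, which served as an alternative (version 1.42.0). The fit was first tested on simulated data. Libraries held 11077368 to 21901406 reads, and 3 counts per library were taken as the floor, which covers counting error only. All pairs of replicates differed beyond sampling noise.

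The members, lists and tests were chosen with earlier results of these data known. Named members are the largest changes of each sign past the threshold in each comparison (10 of each sign at 12 h, 5 at 6 h, without overlap between groups, and 3 for the other comparisons) with a mean of at least 1 log2 CPM, the 5 highest per kb of exon, the 5 longest, the 3 nearest to the span limit on each side and 8 genes set by name. Some items that this rule names are not reported here. Other names were chosen after their values were seen. Alternatives were another scaling, no filter on low counts, unrounded counts, only the libraries compared, a replicate block, no lncRNA and rRNA genes, other span limits and leaving out each library.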

Additional observations from a re-analysis of the deposited data

Results flagged for a closer look

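The response of some very long genes differed between the lines, by the test of the difference of effects (A2780cis minus A2780, edgeR adjusted p of 0.05). At 6 h the difference was negative for 3 of 184 members, beside 2.38% of all genes tested, with -1.30 for PALM2AKAP2, -0.85 for GMDS and -0.66 for GPHN on the log2 scale. At 12 h it was negative for 30 members (16.3%, beside 14.0% of all genes) and positive for 8 (4.35%, beside 9.7%), a share of negative differences near that of all genes. PALM2AKAP2 (-2.47), LRRC7 (-2.06) and ADGRL2 (-1.95, with treated A2780cis libraries at the floor) had the largest negative differences among members of a mean of at least 1 log2 CPM, and NCAM2 (0.92), FRMD4A (0.83) and DLG2 (0.71) the largest positive ones.

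The response also differed between the times, by the test of the 12 h effect minus the 6 h effect. In A2780 this was negative for 42 members (22.8%, beside 13.0% of all genes) and positive for 7 (3.80%, beside 10.7%), with GPC6 (-1.70), PRKG1 (-1.63) and TBC1D5 (-1.57) at one end and ASTN2 (1.17), ANKS1B (0.90) and SYNE1 (0.87) at the other. In A2780cis it was negative for 50 members (27.2%, beside 13.6%) and positive for 5 (2.72%, beside 10.3%), with ADGRL2 (-1.93), ANK3 (-1.77), CAMTA1 (0.46) and SUMF1 (0.43).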

How the results depend on the processing

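Over the alternatives run, no named member with a call changed sign, but in untreated cells the balance of members higher and lower with time turned with library size alone (values below). Counts of members lower in the 4 treatment comparisons stayed within 1.5 times the reported ones under every alternative. Of 3333 alternative values of 60 named members, 3197 kept their side of the threshold, 114 lost it and 22 gained it. Leaving out each library in turn gave 83 to 100 lower members in A2780 at 6 h, 119 to 126 at 12 h, 69 to 80 in A2780cis at 6 h and 96 to 101 at 12 h.

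Median log2 FC of the members moved by more than the replicate spread in these cases. In A2780 at 6 h it was -0.49 with a span limit of 300 kb and -1.05 with one of 1 Mb. In A2780 at 12 h it was -1.03 with DESeq2 and without a filter, -0.88 with library size alone, -0.74 with 300 kb and -1.38 with 1 Mb. In A2780cis at 6 h it was -0.44 without a filter and -0.41 with 1 Mb. In A2780cis at 12 h it was -0.76 with DESeq2, -0.93 with library size alone, -0.83 without a filter, -1.27 with only the libraries compared, -0.95 with 300 kb, -1.24 with 1 Mb, and, chosen after seeing the data, -1.13 with canonical transcripts past the limit and -1.15 above the floor. Without composition scaling, the median of all genes tested in the 4 comparisons went to 0.10, 0.24, 0.10 and 0.15, from 0.04, 0.02, 0.00 and 0.04. Against shorter genes in the same class of GC content, the members' difference was -0.63, -1.03, -0.49 and -0.90 in the 4 comparisons, by transcript length -0.63, -1.0, -0.50 and -0.72, and by exon number -0.70, -0.99, -0.48 and -0.71, all chosen after seeing the data. In A2780cis at 12 h, shares lower by exon class, fewest exons first, were 41.7%, 56.8%, 62.9%, 54.1% and 56.4% of members. Of shorter genes they were 24.4%, 42.0%, 51.4%, 58.1% and 60.5%.

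Small counts moved more. Members higher in A2780 at 6 h numbered 1 with only the libraries compared (2.44% with 1 Mb), in A2780cis at 6 h 2 with library size alone (0% with 1 Mb or without shared exons) and in A2780cis at 12 h 8 with only the libraries compared. Positive differences between lines at 6 h numbered 1 without a filter, with only the libraries compared or without lncRNA and rRNA genes, and at 12 h 5 without a filter. Rises from the 6 h to the 12 h effect numbered 12 in A2780 with library size alone, and in A2780cis 3 with DESeq2, 2 without a filter and 1 with only the libraries compared. Untreated A2780 had 8 lower and 15 higher with library size alone, 22 lower with the size factors of DESeq2 and 14 higher with only the libraries compared. Untreated A2780cis had 14 lower and 16 higher with library size alone, 22 lower without a filter, 20 lower with only the libraries compared and 5 higher with DESeq2. The cause of these moves was not tested.

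Leaving out libraries moved the smaller counts by over 1.5 times. Members higher at 6 h ran from 1 to 3 in A2780 (1 without treated replicate 2 or 3) and from 1 to 3 in A2780cis (3 without untreated replicate 2, 2 without treated replicate 3 or untreated replicate 1). Negative differences between lines at 6 h ran from 2 to 6 (6 without treated A2780cis replicate 1) and positive ones from 0 to 2 (2 without untreated A2780 replicate 2, 1 without untreated A2780cis replicate 2). Positive ones at 12 h ran from 5 to 12 (5 without A2780cis treated replicate 1 or 3 or untreated replicate 2). Rises from the 6 h to the 12 h effect ran from 4 to 10 in A2780 (4 without treated replicate 1 or untreated replicate 1 of 6 h, or untreated replicate 2 or 3 of 12 h) and from 1 to 5 in A2780cis, where 9 of the 12 libraries moved the count and the value was 1 without treated replicate 3 of 6 h or untreated replicate 2 of 12 h. Untreated falls with time ran from 3 to 14 in A2780 (3 without replicate 3 of 12 h or replicate 1 of 6 h, 8 without replicate 2 of 12 h) and from 22 to 37 in A2780cis (22 without replicate 3 of 12 h). Untreated rises ran from 3 to 7 in A2780 (3 without replicate 1 of 6 h) and from 3 to 10 in A2780cis (3 without replicate 2 or 3 of 12 h, 4 without replicate 1 or 3 of 6 h).

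Replicate numbers were not taken to pair the samples, since the correlations of same-numbered deviations ran from -0.25 to 0.31 and not all exceeded 0.1. The fit with a replicate block gave 102, 125, 83 and 96 lower members in the 4 treatment comparisons, and 2 in place of 5 rises from the 6 h to the 12 h effect in A2780cis. Depth limits members near 3 counts per library, where a fall could not be detected.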

Other observations

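At 6 h, 61 members were lower in both lines, 56.5% of those lower in A2780 and 72.6% of those lower in A2780cis. Of the members lower at 6 h, 96 of 108 in A2780 and 80 of 84 in A2780cis were also lower at 12 h. Such overlaps over all genes are not given here.

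Among the 104 members with a mean of at least 1 log2 CPM, 70 were lower and 1 higher in A2780 at 6 h, and 74 and 7 at 12 h. In A2780cis 68 were lower and 1 higher at 6 h, and 81 and 5 at 12 h. Of all genes tested, at any level, 13.4%, 26.1%, 16.3% and 28.9% were lower in these comparisons and 16.0%, 28.6%, 14.4% and 31.0% higher. Shares over all genes of that mean are not given here. Across members of that mean, Spearman's rho between the GC content of the canonical transcript and the log2 FC was 0.32 in A2780 at 6 h (n = 104) and 0.16 in A2780 at 12 h (n = 103), and 0.05 and 0.06 in A2780cis (n = 101). These correlations are across genes measured in the same libraries, and genes are not independent replicates.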
